A study of Homo sapiens with 12 samples.

Results

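The cyclin-dependent kinase (CDK) inhibitor genes were examined in C4-2 cells, an LNCaP-derived line of human prostate cancer, after knockdown of choline kinase alpha (CHKA), the enzyme that starts phosphatidylcholine synthesis in the Kennedy pathway. The members were chosen by name and function, with earlier results of these data known. They comprised 3 CIP/KIP genes (CDKN1A, CDKN1B and CDKN1C), 3 INK4 genes (CDKN2A, CDKN2C and CDKN2D) and CDKN3. CDKN2B was not among them, so statements on INK4 genes cover these 3 only. All 7 were found by Ensembl identifier among the 54127 genes of the count files, and all 7 passed the expression filter that kept 14501 genes. In both groups the cells were grown in RPMI medium with 10% serum and reverse transfected with 50 nM of an siRNA pool, which was directed at CHKA in the 6 siCHKA samples and nontargeting in the 6 siNT control samples. RNA came from flow sorted cells, for which the sort criterion and the time after transfection are not given in the sources used here, and poly(A) RNA was sequenced. The groups describe 1 established line and 1 siRNA pool, and the study speaks of biological replicates, with differing numbers of them in different places. The labels do not say which samples of a group came from separate cultures, so the p-values measure the spread between these samples, which may in part be technical.

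CDK inhibitors slow the cell cycle in distinct ways. The CIP/KIP proteins p21 (CDKN1A), p27 (CDKN1B) and p57 (CDKN1C) bind whole cyclin-CDK complexes, chiefly those of CDK2, whereas the INK4 proteins bind CDK4 and CDK6 alone and keep cyclin D away from them, so that RB stays active and E2F target genes stay off. CDKN3 encodes a phosphatase that removes the activating phosphate from CDK2 and CDK1, and its transcript is known to be abundant in dividing cells. Several of these proteins, p27 above all, are regulated by degradation, which transcript counts do not show.

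The promoter sequences of the 4 members with the largest changes, 1 that rose and 3 that fell, are shown so that the members can be told apart at the sequence level. They come from RefSeq windows in GRCh38.p14 that run from 250 bases before to 50 bases after a gene start, of which 9 were found for 6 of the 7 members. Only the longest stretch before the start that overlaps no GENCODE exon is given, 5′ to 3′ on the strand of the gene, and capitals mark the CCAAT box (CCAAT) and the GC box (GGGCGG) on either strand. The CDKN1A stretch is chr6:36678560-36678709 on the plus strand, and the CDKN2C stretch is chr1:50969995-50970244 on the plus strand, before the third of its 3 listed starts. Both lie inside the annotated gene, in introns of transcripts that start further upstream. The CDKN2D stretch is chr19:10569060-10569229 on the minus strand and the CDKN3 stretch is chr14:54396757-54396848 on the plus strand, each just outside the annotated gene.
CDKN1A: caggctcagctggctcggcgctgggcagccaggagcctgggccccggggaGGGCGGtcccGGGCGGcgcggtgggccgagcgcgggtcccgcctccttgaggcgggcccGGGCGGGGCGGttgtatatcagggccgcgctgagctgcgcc
CDKN2C: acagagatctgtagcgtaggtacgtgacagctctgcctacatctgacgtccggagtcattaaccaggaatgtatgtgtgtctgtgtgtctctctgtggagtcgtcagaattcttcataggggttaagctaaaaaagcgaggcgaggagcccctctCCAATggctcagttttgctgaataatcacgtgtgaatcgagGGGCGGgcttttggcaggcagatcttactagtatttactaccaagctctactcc
CDKN2D: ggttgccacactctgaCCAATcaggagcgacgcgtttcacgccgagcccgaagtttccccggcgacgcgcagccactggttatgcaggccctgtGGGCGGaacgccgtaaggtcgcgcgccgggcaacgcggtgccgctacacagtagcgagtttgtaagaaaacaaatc
CDKN3: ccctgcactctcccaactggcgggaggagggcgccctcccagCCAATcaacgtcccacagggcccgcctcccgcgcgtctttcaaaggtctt
Over the whole windows of 300 bases, the CDKN1A window held 4 GC boxes, of which the last 2 overlap by a base, and 0 CCAAT boxes. The CDKN3 window held 2 CCAAT boxes and 0 GC boxes, while the CDKN2D window held 1 CCAAT box and 3 GC boxes and this CDKN2C window held 1 of each. The windows at the other 2 CDKN2C starts held no CCAAT box, and 0 and 6 GC boxes, so the count for CDKN2C depends on the start. Of all 35116 RefSeq windows, 34.6% held a CCAAT box and 45% a GC box. The CHR element (TTTGAA, either strand), a motif of many cell cycle promoters, was in 15.2% of all windows and among the 4 shown it was in that of CDKN3, in lower case. The E-box (CACGTG) was in 7.26% of all windows and in the CDKN2C window shown. These are letter matches in a window and say nothing of which factor was bound in these cells.

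The libraries held 12158361 to 20670479 reads counted on genes after siCHKA (median 18600973) and 10685184 to 24246055 after siNT (median 16912852). CHKA itself was measured at 1.91 to 4.67 CPM (counts per size of library, scaled by TMM) in the siCHKA samples and 36.7 to 43.3 CPM in the siNT samples, with a log2 fold change of -3.88 (SE 0.14, adjusted p = 5.89e-13, edgeR). Most genes moved: of the 14501 tested, 30.1% were lower and 32.1% higher after siCHKA at an adjusted p below 0.05, which is 62.2% in either direction, and the median log2 fold change over all tested genes was 0.04. All 8 luminal prostate markers were present in every sample, with KLK3 at 1726 to 3811 CPM. Of 8 markers of other cells, PECAM1 had no matching identifier, DES was at 0 in every sample, KRT5, TP63, PTPRC, COL1A2 and CHGA reached at most 4 counts in any sample, and COL1A1 was at 23.8 to 30.0 CPM after siCHKA and 11.4 to 18.2 CPM after siNT. Their summed level was therefore 23.9 to 30.2 CPM after siCHKA and 11.5 to 18.4 CPM after siNT, and its part in the results was not tested. Among the siCHKA samples, replicates 1, 3 and 5 stood apart from replicates 2, 4 and 6 when all genes were compared: pairs within these sets differed by a chi-square per degree of freedom of 2.39 to 9.50 and pairs across them by 12.5 to 24.9, and 47.5% of tested genes did not overlap between the sets. Within siNT the pairs ranged from 2.51 to 30.9, with replicates 5 and 6 the closest.

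The CDK inhibitor transcripts called changed moved in opposite directions after CHKA knockdown, and the INK4 members examined were themselves split. CDKN1A, CDKN1C and CDKN2A rose by 0.58 to 0.81 on the log2 scale, CDKN2C, CDKN2D and CDKN3 fell by 0.77 to 1.03, and CDKN1B did not pass the test. Thus 6 of the 7 members changed at an adjusted p below 0.05 (edgeR quasi-likelihood test, Benjamini-Hochberg adjusted over all tested genes), against 62.2% of all tested genes. In 5 of the 7 members the siCHKA and siNT samples did not overlap, a separation also found in 40.6% of tested genes. Among the CIP/KIP genes 2 rose and 1 was not called, and among the INK4 members 1 rose and 2 fell. Of all tested genes 32.1% were higher and 30.1% lower, so counts in so few genes do not set either family apart. In bulk RNA a change in the share of cells with a transcript cannot be told apart from a change in its amount per cell.

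**Figure D1:**
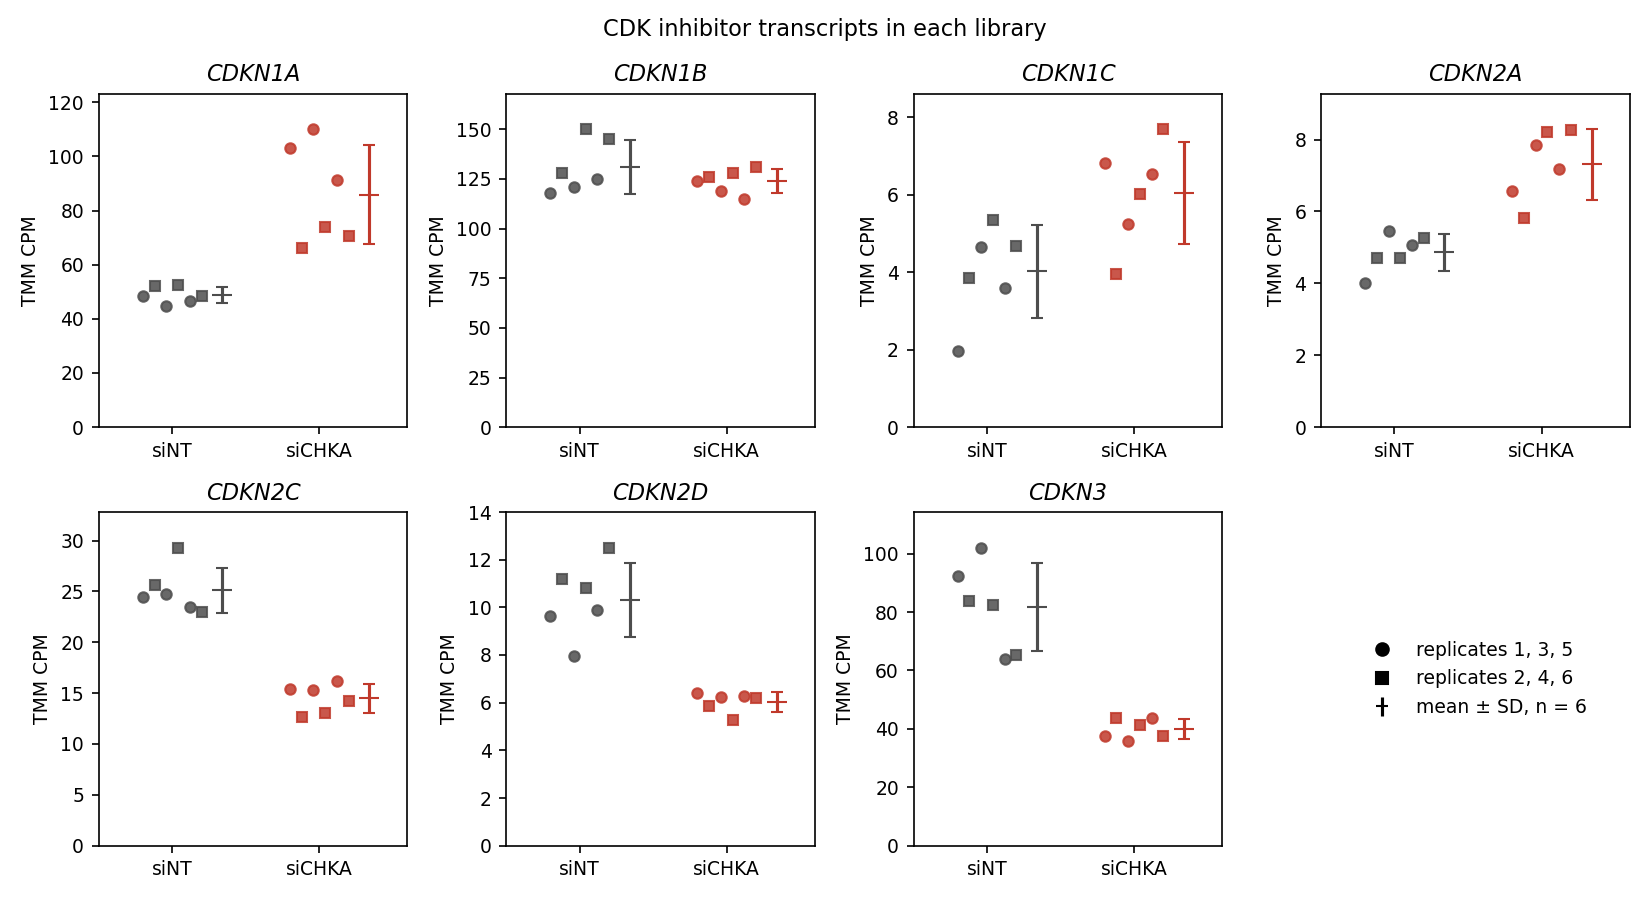
Level of each CDK inhibitor transcript in TMM CPM (y axis, from 0) in the siNT (grey) and siCHKA (red) samples, with circles for replicates 1, 3 and 5, squares for replicates 2, 4 and 6, and bars for the mean ± SD (n = 6). The siCHKA points of CDKN1A and CDKN2A lie above all siNT points, those of CDKN2C, CDKN2D and CDKN3 lie below them, and those of CDKN1B and CDKN1C overlap with them.

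CDKN1A (ENSG00000124762, chr6:36676460-36687337 in GRCh38, plus strand) encodes p21, a broad inhibitor of CDK2 complexes. It ranged from 66.3 to 110 CPM after siCHKA, with a median of 82.6 CPM, and from 44.8 to 52.4 CPM after siNT, with a median of 48.5 CPM. Every siCHKA sample was above every siNT sample. The mean was 85.9 ± 18.4 CPM after siCHKA and 48.9 ± 3.00 CPM after siNT (SD, n = 6 each), a log2 fold change of 0.81 (SE 0.11, 95% interval 0.58 to 1.05, adjusted p = 6.53e-06, edgeR). The siCHKA samples were themselves uneven. Replicates 1, 3 and 5 were at 103, 110 and 91.3 CPM, or 2.08 times the siNT mean, and replicates 2, 4 and 6 were at 66.3, 73.9 and 70.6 CPM, or 1.44 times. Both sets were above all siNT samples. The log2 fold change was 0.52 without replicates 1, 3 and 5 and 1.06 without replicates 2, 4 and 6, so the direction and the call stood in either set while the size depended on it. CHKA itself was at 1.91 to 2.34 CPM in replicates 1, 3 and 5 and 2.27 to 4.67 CPM in replicates 2, 4 and 6. These ranges overlap, and a link to the size of the CDKN1A rise was not tested.

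CDKN1B (ENSG00000111276, chr12:12685498-12722369, plus strand) encodes p27, which binds CDK2 complexes and is held low in dividing cells mainly by degradation. Its transcript ranged from 115 to 131 CPM after siCHKA (median 125) and from 118 to 150 CPM after siNT (median 126). The groups overlapped, and the siNT samples at the top were replicates 4 and 6, at 150 and 145 CPM. The log2 fold change was -0.08 (SE 0.06, 95% interval -0.22 to 0.05, adjusted p = 0.264, edgeR), so a change of the size seen for CDKN1A lies outside the interval. Within siCHKA, replicates 1, 3 and 5 (115 to 124 CPM) were below replicates 2, 4 and 6 (126 to 131 CPM), the reverse of their order in CDKN1A.

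CDKN1C (ENSG00000129757, chr11:2883213-2885775, minus strand) encodes p57, an imprinted CIP/KIP gene. It was among the lowest members, with 23 to 159 counts in a library, and ranged from 3.96 to 7.69 CPM after siCHKA (median 6.27) and from 1.96 to 5.36 CPM after siNT (median 4.25). The groups overlapped: siCHKA replicate 2, at 3.96 CPM, lay below 3 siNT samples, and siNT replicate 1 was lowest of all. The log2 fold change of 0.58 (SE 0.19, 95% interval 0.18 to 0.97, adjusted p = 0.0138, edgeR) rested in part on replicate 1 of each group. Without these libraries it was 0.41 with an adjusted p of 0.0505, and without siCHKA replicates 1, 3 and 5 it was 0.53 with an adjusted p of 0.051, so the call ended in both cases.

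CDKN2A (ENSG00000147889, chr9:21967752-21995301, minus strand) encodes p16, an inhibitor of CDK4 and CDK6, and from another first exon the unrelated protein ARF, which binds MDM2. It ranged from 5.82 to 8.27 CPM after siCHKA (median 7.51) and from 4.01 to 5.46 CPM after siNT (median 4.88). All siCHKA samples were above all siNT samples, though siCHKA replicate 2 was only slightly above the highest control. The mean was 7.31 ± 0.978 CPM against 4.87 ± 0.516 CPM (SD, n = 6 each), a log2 fold change of 0.58 (SE 0.11, 95% interval 0.36 to 0.81, adjusted p = 0.000164, edgeR). Counts over the whole gene cannot separate the p16 and ARF transcripts. A further limit is that 15.3% of its exon bases are shared with another counted gene in GENCODE, and reads on overlapping genes are left out by the counting.

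CDKN2C (ENSG00000123080, chr1:50960745-50974634, plus strand) encodes p18, an INK4 inhibitor of CDK4 and CDK6 whose gene is a known E2F target. It ranged from 12.7 to 16.2 CPM after siCHKA (median 14.8) and from 23.0 to 29.3 CPM after siNT (median 24.6). The groups were well apart, the highest siCHKA value being replicate 5 and the lowest siNT value replicate 6. The mean after siCHKA, 14.5 ± 1.41 CPM, was 57.7% of the siNT mean of 25.1 ± 2.25 CPM (SD, n = 6 each), and the log2 fold change was -0.80 (SE 0.08, 95% interval -0.96 to -0.64, adjusted p = 1.02e-07, edgeR). Here siCHKA replicates 2, 4 and 6 (12.7 to 14.2 CPM) were the further from siNT, below replicates 1, 3 and 5 (15.3 to 16.2 CPM).

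CDKN2D (ENSG00000129355, chr19:10566460-10569059, minus strand) encodes p19, the INK4 protein whose level is known to oscillate in the cell cycle. It ranged from 5.26 to 6.40 CPM after siCHKA (median 6.20) and from 7.95 to 12.5 CPM after siNT (median 10.3). The siCHKA samples were tight and all below the siNT samples, which spread more widely from replicate 3 at the bottom to replicate 6 at the top. The mean was 6.04 ± 0.423 CPM against 10.3 ± 1.54 CPM (SD, n = 6 each), or 58.5% of the siNT mean, with a log2 fold change of -0.77 (SE 0.10, 95% interval -0.98 to -0.56, adjusted p = 4.13e-06, edgeR). CDKN2C and CDKN2D thus fell by nearly the same amount, and their intervals overlapped, while CDKN2A of the same family rose with an interval that did not reach theirs.

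CDKN3 (ENSG00000100526, chr14:54396849-54420218, plus strand), the phosphatase of CDK2 and CDK1, had the largest change among the members. It ranged from 36.0 to 43.8 CPM after siCHKA (median 39.5) and from 63.8 to 102 CPM after siNT (median 83.1). The siCHKA samples lay close together and below all siNT samples, among which replicates 5 and 6, at 63.8 and 65.2 CPM, were the lowest and replicate 3 the highest. The mean was 40.0 ± 3.44 CPM against 81.6 ± 15.1 CPM (SD, n = 6 each), or 49.0% of the siNT mean, with a log2 fold change of -1.03 (SE 0.10, 95% interval -1.25 to -0.82, adjusted p = 1.51e-07, edgeR). Without siNT replicates 5 and 6, an alternative chosen after seeing the data, the log2 fold change was -1.18. The siCHKA sets overlapped for CDKN3, at 36.0 to 43.7 CPM in replicates 1, 3 and 5 and 37.6 to 43.8 CPM in replicates 2, 4 and 6.

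**Figure D2:**
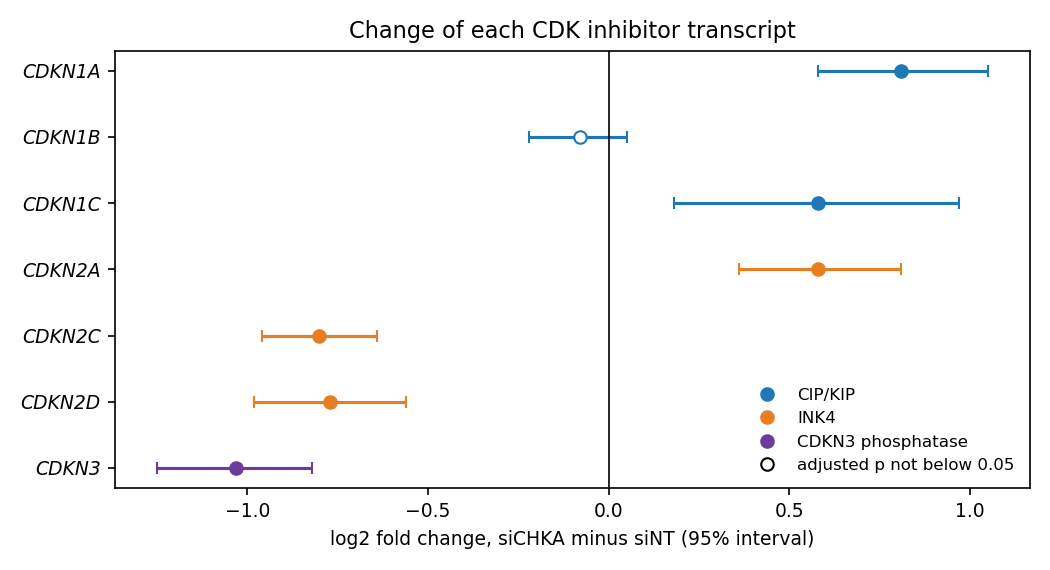
Log2 fold change (x axis, siCHKA minus siNT) of each CDK inhibitor transcript with its 95% interval from edgeR, coloured by family, with an open symbol where the adjusted p was not below 0.05. CDKN1A, CDKN1C and CDKN2A lie right of 0, CDKN2C, CDKN2D and CDKN3 left of it, and the interval of CDKN1B, from -0.22 to 0.05, spans it.

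Levels of the members were compared with each other as CPM per kilobase of merged exons. After siNT the order was CDKN3 (44.6 ± 8.24 CPM per kilobase), CDKN1A (16.3 ± 1.00), CDKN1B (14.2 ± 1.46), CDKN2C (8.32 ± 0.747), CDKN2D (6.85 ± 1.02), CDKN1C (1.62 ± 0.480) and CDKN2A (1.25 ± 0.133; SD, n = 6 each). The sample ranges of 3 pairs of neighbours overlapped, namely CDKN1A with CDKN1B, CDKN2C with CDKN2D, and CDKN1C with CDKN2A. After siCHKA the first 2 places were exchanged, with CDKN1A at 28.7 ± 6.13 and CDKN3 at 21.9 ± 1.88 CPM per kilobase, although their ranges of 22.1 to 36.8 and 19.7 to 24.0 overlapped. CDKN1B followed at 13.4 ± 0.632, CDKN2C at 4.80 ± 0.467, CDKN2D at 4.01 ± 0.281, CDKN1C at 2.44 ± 0.528 and CDKN2A at 1.88 ± 0.252 CPM per kilobase. The order depends on the length used: with the longest coding transcript in place of merged exons, CDKN1B (30.2) stood above CDKN1A (21.6) and CDKN2A (4.63) above CDKN1C (2.07) in siNT, on the scale of CPM per kilobase. In siCHKA, on that scale, CDKN1A (37.9 ± 8.09) and CDKN3 (37.4 ± 3.21) were nearly level, and CDKN2A (6.95 ± 0.929) stood above CDKN2C (4.99), CDKN2D (4.24) and CDKN1C (3.12).

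**Figure D3:**
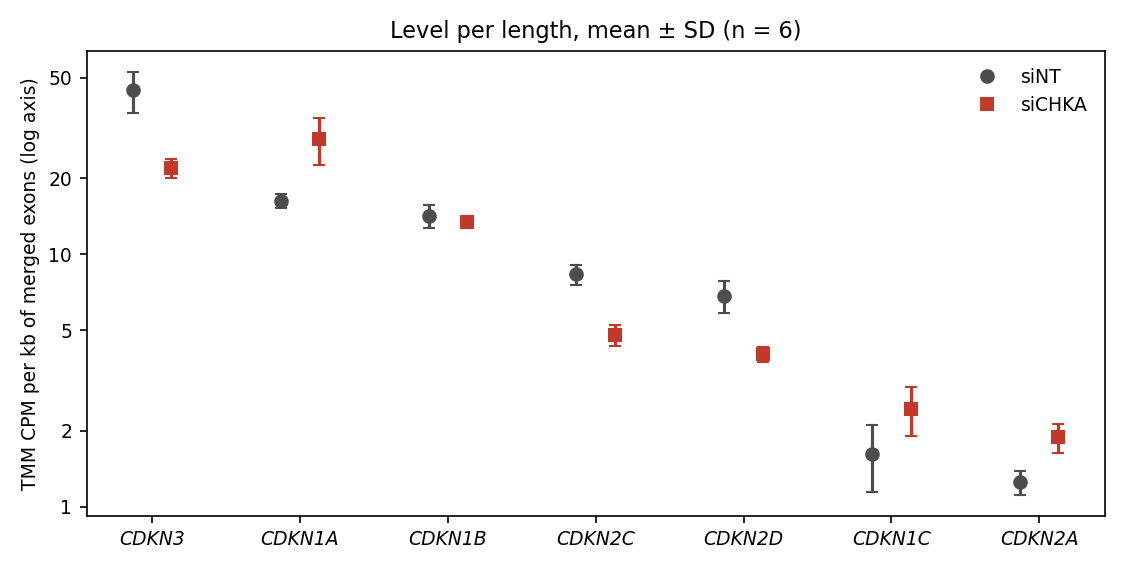
Level of each member in TMM CPM per kilobase of merged exons (y axis, log scale), as mean ± SD of 6 samples, for siNT (grey circles) and siCHKA (red squares), in the order of the siNT means. CDKN3 is highest in siNT at 44.6 and CDKN1A is highest in siCHKA at 28.7, while CDKN1C and CDKN2A are lowest in both on this length.

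The transcripts of the kinases and cyclins that these inhibitors bind were mostly lower. Of 10 listed genes 9 were tested, of which 6 fell and 2 rose, with a median log2 fold change of -0.99 against 0.04 over all tested genes. Of all tested genes 30.1% were lower and 32.1% higher. CDK2, the main partner of the CIP/KIP proteins, fell from 125 ± 5.72 to 52.2 ± 3.90 CPM (SD, n = 6 each; log2 fold change -1.26), and CDK1, the mitotic kinase, from 798 ± 45.0 to 395 ± 22.6 CPM (-1.01). The INK4 partners fell unequally, CDK6 by 0.99 and CDK4 by 0.47 on the log2 scale. CCNA2 (cyclin A2), with the smallest p in the list among those that fell, went from 150 ± 16.3 to 46.5 ± 1.97 CPM (-1.70). The cyclins of G1 were divided. CCND1 (cyclin D1) rose by 0.55, CCND3 differed by -0.08 on the log2 scale (adjusted p = 0.319, edgeR), CCNE1 rose by 0.69 and CCNE2 fell by 1.11, so the E-type cyclin genes moved in opposite directions. Without siCHKA replicates 1, 3 and 5 CCND3 was called lower (-0.23, adjusted p = 0.00385, edgeR). CCND2 did not pass the expression filter.

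Among 15 genes listed for turnover of the inhibitors, 9 fell and 5 rose, against 30.1% lower and 32.1% higher among all tested genes. The list median was a log2 fold change of -0.40, and without siCHKA replicates 1, 3 and 5 the number called higher was 3. SKP2, CKS1B and DTL, which act in the recognition of p27 and p21 for degradation, had the 3 largest falls in the list. SKP2, the F-box protein that binds p27, fell from 127 ± 4.74 to 26.3 ± 3.13 CPM (SD, n = 6 each), a log2 fold change of -2.27 (SE 0.07, adjusted p = 6.23e-14, edgeR). Its cofactor CKS1B fell from 86.7 ± 9.70 to 18.6 ± 1.89 CPM (-2.22). DTL, the CUL4 adaptor that targets p21 on loaded PCNA, fell from 71.8 ± 2.68 to 19.5 ± 1.53 CPM (-1.88). CDC20, the mitotic activator of the anaphase-promoting complex and a route of p21 degradation, fell by 1.57. In each of these 4 genes the groups did not overlap, which also held for 40.6% of all tested genes. Transcripts higher after siCHKA had smaller changes. RNF123, a ubiquitin ligase subunit for p27 in the cytoplasm, rose by 0.35, while UBAC1 of the same list fell by 0.37. FBXW7, which is listed here although it targets cyclin E, rose by 0.39. The FBXW7 call ended without siCHKA replicates 1, 3 and 5 (0.20, adjusted p = 0.0832, edgeR). CDKN1B, the transcript of the SKP2 substrate, was the member that did not pass the test.

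Of 12 genes that regulate CDKN1 transcription, 3 fell and 4 rose, with a median log2 fold change of 0.10, shares close to the 30.1% lower and 32.1% higher among all tested genes. MYC, a repressor of CDKN1A, fell from 333 ± 20.6 to 233 ± 18.7 CPM (SD, n = 6 each, log2 fold change -0.52). KLF6, a zinc finger activator of CDKN1A, rose from 14.8 ± 1.70 to 21.3 ± 2.57 CPM (0.53). The genes that fell also included SP1, from 138 ± 13 to 97.7 ± 8.45 CPM (-0.50), and SMAD4, from 72.3 ± 6.72 to 59.7 ± 1.75 CPM (-0.28). Whether any of these changes had a part in the rise of CDKN1A was not tested. For MDM2, the ligase that ARF binds, the difference was 0.07 on the log2 scale (adjusted p = 0.228, edgeR), for FOXO1 it was 0.15 (adjusted p = 0.293) and for FOXO3 0.00 (adjusted p = 0.997). Without siCHKA replicates 2, 4 and 6, MDM2 (0.14, adjusted p = 0.0465, edgeR) and FOXO1 (0.36, adjusted p = 0.00859) were called higher, and FOXO1 also without replicate 4 of each group (0.27, adjusted p = 0.0401). In the TGF-beta mediator SMAD3 the log2 fold change was 0.27 (adjusted p = 0.0164, edgeR), and its call ended in 5 settings: without siCHKA replicates 1, 3 and 5 (0.23, adjusted p = 0.0784), without replicate 1 (0.20, 0.0813) or replicate 3 (0.23, 0.0642) of each group, with no filter (0.24, 0.0528) and with the first count file only (0.33, 0.0758). The number of genes called higher in this list was 1 without siCHKA replicates 1, 3 and 5 and 7 without replicates 2, 4 and 6, and it was also 1 without replicate 1 and without replicate 3 of each group, and with no filter on low counts.

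Of 14 genes that regulate the INK4 genes, 6 fell and 4 rose, with a median log2 fold change of -0.19, where 62.2% of all tested genes changed in either direction. ID1, which holds back the ETS and E proteins that activate CDKN2A, had the largest change, from 8.96 ± 2.74 to 1.24 ± 0.381 CPM (SD, n = 6 each; log2 fold change -2.84). EZH2, the Polycomb methyltransferase that represses CDKN2A, fell from 76.4 ± 5.25 to 35.5 ± 3.82 CPM (-1.10), whereas BMI1, a Polycomb protein that represses the same gene, rose by 0.29 and CBX7 differed by 0.04 (adjusted p = 0.653, edgeR). KDM6B, which removes the Polycomb mark, rose by 0.53. E2F1, an activator of CDKN2C and CDKN2D, fell from 61.9 ± 2.71 to 26.8 ± 2.53 CPM (-1.21). The other genes called were lower in RNF2 (-0.42), SUZ12 (-0.25) and E2F3 (-0.55) and higher in CBX8 (0.36) and ETS2 (0.28). Whether any of these changes had a part in those of the INK4 genes was not tested.

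**Figure D4:**
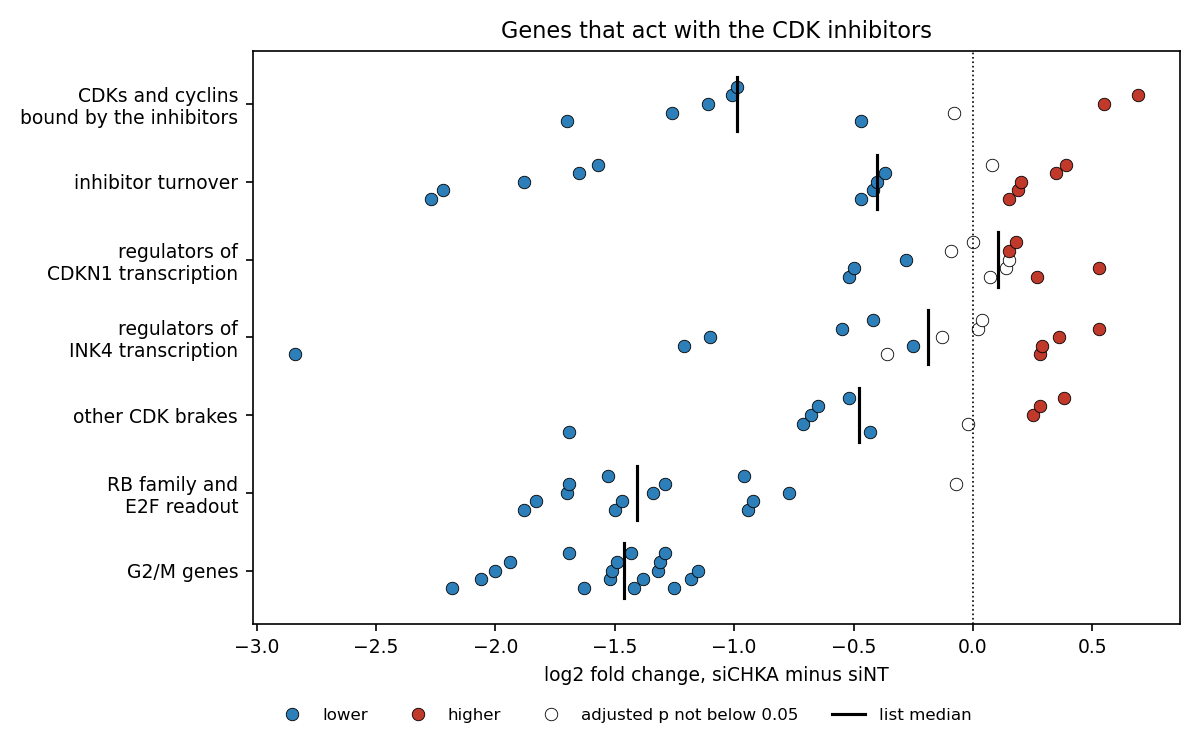
Log2 fold change (x axis, siCHKA minus siNT) of the tested genes of 7 lists that act with the CDK inhibitors, 1 point per gene, blue for lower, red for higher and white for an adjusted p not below 0.05, with a bar at each list median. The lists of RB and E2F readout genes and of G2/M genes have medians of -1.40 and -1.46, and the regulators of CDKN1 transcription spread around a median of 0.10.

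Among 10 other genes that restrain CDKs, 6 fell and 3 rose, against 30.1% lower and 32.1% higher among all tested genes. The list median was a log2 fold change of -0.47, and without siCHKA replicates 1, 3 and 5 only 1 was called higher. The kinases that add inhibitory phosphates to CDK1 fell, PKMYT1 from 23.3 ± 2.31 to 7.25 ± 0.791 CPM (SD, n = 6 each; log2 fold change -1.69) and WEE1 from 76.3 ± 4.33 to 47.6 ± 5.31 CPM (-0.68). The CDK2-associated genes CDK2AP1 and CDK2AP2 fell by 0.52 and 0.71. GADD45A, a stress-induced inhibitor of CDK1, rose by 0.28. The share of exon bases that overlap other counted genes in GENCODE was 44.2% in CDK4, 37.0% in CCNE2, 31.9% in PKMYT1 and 24.2% in CDK2AP1. It was 16.8% in CDK2, 16.3% in CHKA and 15.7% in RNF123. The levels of these genes are therefore less sure.

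In the list of RB family and E2F readout genes, 13 of 14 fell and 0 rose, with a median log2 fold change of -1.40. CCNA2 is counted both here and among the kinases and cyclins above. A link of these changes to the inhibitors was not tested. CDC6, a replication licensing gene, fell from 202 ± 9.29 to 54.8 ± 3.74 CPM (SD, n = 6 each; -1.88). Of the pocket protein genes, RB1 fell by 0.92 and RBL1 by 0.96, and RBL2 differed by -0.07 (adjusted p = 0.379, edgeR). All 18 tested G2/M genes fell, with a median of -1.46, among them KIF20A (-1.69), PLK1 (-1.52), CCNB1 (-1.42) and MKI67 (-1.32). These lists describe the same 12 samples as the members, and their counts are to be read against 30.1% lower genes overall.

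For the 6 changed members, the tested genes averaging 10 CPM or more whose log2 CPM, centred on each gene's own mean, followed the member most closely over the 12 samples were sought among 9493 genes. Those nearest to CDKN1A were FBXL19 and ZNF776, with mean absolute differences of 0.070 and 0.081 on the log2 scale. The nearest to CDKN2C were SKA1 (0.058), a spindle and kinetochore gene, and ARF3 (0.059). The nearest to CDKN2D were ADAMTS1 (0.084) and RTN4 (0.085), and to CDKN3 they were MMAB (0.089) and SLC10A3 (0.095). CDKN2A had ZNF467 (0.099) and DLL3 (0.102), and the low and variable CDKN1C had no gene nearer than ZBTB18 (0.224) and F8 (0.231). The distance takes in the difference between the groups, so it favours genes with a like log2 fold change. Examples are FBXL19 (0.75) and ZNF776 (0.77), SKA1 (-0.83) and ARF3 (-0.76), and MMAB (-1.03) and SLC10A3 (-0.91). Shared regulation was not tested.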

How the data were processed

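RNA of 6 siCHKA and 6 siNT samples of C4-2 cells was sequenced as short single-end reads. According to the submitters' processing notes and the methods of the study, the authors aligned reads to GRCh37 with TopHat 2.0.4 and deposited raw counts on Ensembl genes made with HTSeq-count 0.5.3p9, in 4 count files per sample, which were summed here. Rows naming no gene held 33.9% to 39.0% of each sample and were left out. Reads with several alignments or on overlapping genes are left out by such counting, and the strand setting is not given in the sources used here. Symbols and GRCh38 coordinates came from GENCODE release 44, which matched 82.8% of identifiers.

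The summed counts were filtered with filterByExpr, scaled by TMM and compared between siCHKA and siNT by the quasi-likelihood test of edgeR 4.0.16 (R 4.3.3), and genes with a Benjamini-Hochberg adjusted p below 0.05 over 14501 genes were called changed. SE was the size of the log2 fold change divided by the root of F. log2 CPM used a prior count of 2. Lengths were merged GENCODE exons, and shares of overlapping exon bases came from the same exons in GRCh38. The authors counted on Ensembl genes with reads aligned to GRCh37, where lengths and overlaps may differ. On simulated counts of 14387 genes, 97.9% of 194 genes changed 2-fold were recovered, with 8 false calls. The simulated counts were independent between samples, had the same dispersion in every gene and held no siCHKA sets. In the data themselves 62.2% of genes were called, so the simulation checks the code and does not give error rates for these samples. Alternatives were RLE normalization, DESeq2 1.42.0, all genes kept, a stricter filter (10 or more counts per sample), a replicate block, single replicate numbers or the siCHKA sets left out, the first count file only, and the longest coding transcript as the length. Leaving out siNT replicates 5 and 6 was added after seeing the data.

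The members and lists were chosen with earlier results of these data known. Named genes were the members, CHKA, genes set by role, the gene with the smallest p in each direction of each list, and for each changed member the 2 nearest genes. The lowest member count in a library was 23, and 3 counts amount to 0.124 to 0.281 CPM, a floor for counting error only. Some named genes are not reported here. Proteins were not analysed here.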

Additional observations from a re-analysis of the deposited data

How the results depend on the processing

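The direction of CDKN1A, CDKN2A, CDKN2C, CDKN2D, CDKN3 and CHKA and their side of the threshold were the same under DESeq2, RLE normalization, both other filters on low counts, the first count file, each replicate number left out, either siCHKA set left out and siNT replicates 5 and 6 left out. Over these settings log2 fold changes ranged from 0.52 to 1.06 for CDKN1A, 0.54 to 0.63 for CDKN2A, -0.92 to -0.69 for CDKN2C, -0.85 to -0.70 for CDKN2D and -1.18 to -0.93 for CDKN3. CDKN1B was called under none of them (-0.13 to -0.03). CDKN1C ranged from 0.41 to 0.67 with each replicate number left out and lost its call at 0.41, and again at 0.53 without siCHKA replicates 1, 3 and 5, where fewer samples were used. With the longest coding transcript as the length, siNT levels moved to 76.3 CPM per kilobase for CDKN3, 21.6 for CDKN1A, 30.2 for CDKN1B and 4.63 for CDKN2A. Of 615 values for the other 41 named genes, 600 kept their side of the threshold, 11 lost a call and 4 gained one. A change of sign with a call in either fit was found in 0. The 600 include changes of sign where neither fit was called. For example, CCND3 was at -0.08 in the main fit and reached 0.05, and FOXO1 was at 0.15 and reached -0.07. Of 210 counts of genes per list and direction, 7 moved by over 1.5 times, 5 of them the genes called higher among the regulators of CDKN1 transcription, and the other 2 those called higher among the turnover genes (3) and the other CDK brakes (1) without siCHKA replicates 1, 3 and 5.

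No clear pairing of the samples by replicate number was seen. Correlations between the deviations of same-numbered samples from their group means ranged from -0.396 to 0.321. Of 6 pairs 2 were over 0.1, and 1 sample correlated best with its own number. A weaker pairing could be missed, since the pairs are few and the siCHKA samples fell into sets. A fit with the replicate number as a block gave 4273 lower and 4494 higher genes, against 4371 and 4650 without it. With this block CDKN1A had a log2 fold change of 0.79, CDKN1B of -0.08, CDKN1C of 0.56, CDKN2A of 0.57, CDKN2C of -0.80, CDKN2D of -0.77, CDKN3 of -1.02 and CHKA of -3.90, with calls as in the fit without the block. Depth limits CDKN1C most, at 23 to 90 counts in siNT, and every comparison is of 1 line and 1 siRNA pool.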
